A study of Mus musculus with 18 samples.

Results

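The difference between apex and base of the cochlea was described in mice carrying a conditional knock-out (cKO) of follistatin, encoded by Fst, from 6 of the 18 libraries of the series. These were the 3 libraries of cKO apex and the 3 of cKO base, and all 17901 genes that passed a low-count filter were compared. The cochleae came from mice aged 4 weeks, with no treatment labelled besides the knock-out, and were cut into base, middle and apex. For each genotype and region the tissue was pooled and its RNA split into 3 technical libraries, so that each group is 1 RNA pool. The groups used were cKO apex, cKO middle and cKO base, and control apex, control middle and control base, where the control genotype is labelled WT. The Cre line, the cells it acts in, the deleted exons and the number of mice in a pool are not given in the sources used here.

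The cochlea is a coiled tube in which place stands for pitch: the base receives high frequencies and the apex low ones. Hair cells, their supporting cells, the tectorial membrane above them and the neurons of the spiral ganglion all differ along this axis. Follistatin is a secreted protein that binds activins and keeps them from their receptors, and hedgehog signalling is known for its role in setting apical identity in the embryonic cochlea. The series asks how follistatin relates to the hedgehog-dependent identity of the apex, and the comparison here asks which apex-base differences were present in the cKO.

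Libraries of cKO apex held 26896422 to 27024003 counts, against 25860598 to 25982171 in cKO base. A count of 0 in a library allowed up to 0.11 CPM in cKO apex and 0.117 to 0.118 CPM in cKO base (counts scaled to library size with TMM factors), a limit of 3 counts that covers counting error only. Counts of the 10 top genes made up 8.69% to 8.7% of a library in cKO apex and 11.3% in cKO base. With 1 pool a group, every adjusted p below comes from edgeR's quasi-likelihood test and measures the spread between technical libraries, not between mice. Fewer cells of a type and less RNA per cell cannot be told apart in such tissue. Marker genes of neighbouring tissues differed strongly between the pools. A list of 14 cerebellar neuron genes summed to 303.6 to 308.9 CPM in cKO apex and to 706.3 to 717.1 CPM in cKO base, and a list of airway secretory genes to 340.9 to 345.1 CPM in cKO apex and 96.8 to 99.5 CPM in cKO base. Most of the airway sum in both groups came from 1 gene, Bpifa1. Values of these and other such lists are given in their own paragraphs, and those of central neurons also beside the channel genes. The part of such tissues in the other results was not tested. Xist differed by a log2 change of 0.44 between cKO apex and base, and 4 Y-linked genes by -0.17 to -0.12, none of which was called.

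Promoter windows are shown for 3 genes that were higher in cKO apex: Tectb, which had the largest log2 change of the genes described here as higher in apex, and Slc26a5 and Chrna9, which mark outer hair cells. Each is the 250 bases before the RefSeq start (GRCm38.p6), 5′ to 3′ on the gene's strand, with capitals where CAGCTG, or CAGATG on either strand, was found. These are forms of the E-box, and its other forms were neither marked nor counted.
Tectb, chr19:55180476-55180725, plus strand: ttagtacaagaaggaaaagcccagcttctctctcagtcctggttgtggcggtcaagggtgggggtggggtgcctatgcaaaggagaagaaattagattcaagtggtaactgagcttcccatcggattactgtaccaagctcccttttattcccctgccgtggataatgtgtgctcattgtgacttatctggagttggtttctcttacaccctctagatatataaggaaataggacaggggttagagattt
Slc26a5, chr5:21865605-21865854, minus strand: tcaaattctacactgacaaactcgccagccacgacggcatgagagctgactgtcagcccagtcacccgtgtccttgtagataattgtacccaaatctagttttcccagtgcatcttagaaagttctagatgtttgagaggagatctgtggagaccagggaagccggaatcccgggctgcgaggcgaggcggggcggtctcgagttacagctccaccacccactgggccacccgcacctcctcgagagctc
Chrna9, chr5:65966874-65967123, plus strand: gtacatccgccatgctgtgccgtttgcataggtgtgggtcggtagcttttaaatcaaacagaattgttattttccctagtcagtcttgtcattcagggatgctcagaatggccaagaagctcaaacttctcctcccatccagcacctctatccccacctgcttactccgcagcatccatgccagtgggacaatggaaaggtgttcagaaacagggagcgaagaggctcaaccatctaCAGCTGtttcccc
Tectb and Slc26a5 were chosen for their values and hold no match, while Chrna9 was added because its window holds 1. Of 23 hair cell list genes higher in cKO apex, 18 had a window in RefSeq. Of these, 6 held either of these E-box forms (33.3%), against 21.6% of 12383 windows of tested genes. The share was 30.1% among all genes higher in cKO apex and 30.0% among all genes lower, so it did not separate the directions. These E-box forms were singled out from 8 letter strings after their shares had been seen. All were read on both strands, and the shares are of the hair cell windows first and of all tested windows second. The string CAGCTG alone was in 27.8% and 12.5%, and CAGATG alone in 5.56% and 10.6%. The string ATTAAT was in 11.1% and 2.2%, and TATAAA in 11.1% and 6.78%. No hair cell window held GACCACCCA, found in 0.17% of all windows. None held GTCTAGAC either, found in 0.178%, nor CAGACA, found in 13.8%, nor a spaced POU-domain motif, found in 0.275%. A match is a run of letters, not a site of binding.

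In total 1182 genes were called between cKO apex and cKO base, at an adjusted p under 0.05 and a log2 change of at least 1. Of the genes tested, 500 were higher in cKO apex (2.79%) and 682 lower (3.81%), and the median log2 change of all genes was 0.02. These shares are the background for every count of list members in this comparison. A single called member is not read as a result about its list. Of these calls, 115 higher and 187 lower were of genes averaging at least 5 CPM over cKO apex and base. Without the fold threshold 5467 genes were higher and 4428 lower, given the small technical spread. In control, 408 genes were higher in apex than in base (2.28%) and 573 lower (3.2%). The 2 comparisons share no library. Of the genes higher in cKO apex, 248 were also higher in control apex, 49.6% of the cKO genes and 60.8% of the control genes. Of those lower, 276 were also lower in control apex, 40.5% and 48.2% of each list, while 11 of the higher and 12 of the lower genes were called the other way in control. The mean of cKO middle lay between apex and base for 73.8% of the genes higher in cKO apex and 76.4% of those lower. These genes were selected for a wide gap between apex and base, which by itself makes a middle value between them likely. The share over all genes tested was not computed, so no graded order is read from these shares.

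Tectb (ENSMUSG00000024979, chromosome 19, 55180733 to 55196313, plus strand) encodes β-tectorin, a glycoprotein of the tectorial membrane. Its level was 8.66, 9.13 and 9.34 CPM in the 3 cKO apex libraries, against 0.0786, 0.0782 and 0.117 CPM in cKO base, where the 3 libraries together held 7 counts. Every apex library was far above every base library, and cKO middle lay between at 3.38, 3.93 and 3.9 CPM. The log2 change of apex over base was 6.56 ± 0.215 (adjusted p = 3.8e-24), against 7.44 in control, and the difference of the changes was -0.87 ± 0.686 and was not called (adjusted p = 0.43). The level itself was lower in cKO apex than in control apex, which held 26.7, 27.9 and 27.5 CPM. Among 13 genes of acellular gels 4 were higher in cKO apex and 1 lower, with a median log2 change of -0.29. Strc, the gene of stereocilin, which links stereocilia and the membrane, had 32.7, 34.2 and 31.6 CPM in cKO apex against 6.01, 4.69 and 5.04 CPM in cKO base, a log2 change of 2.65 ± 0.071 (adjusted p = 1e-26). Otogl, an otogelin-like gel protein, changed by 2.01 ± 0.0392 and Zp1 by 1.93 ± 0.273. Col11a1, a fibrillar collagen, changed by -1.40 ± 0.0212, lower in apex. Tecta, which encodes α-tectorin, was not called: it had 1.55, 1.39 and 1.35 CPM in cKO apex and 2.36, 2.42 and 2.19 CPM in cKO base, but 16.1, 17.7 and 16.3 CPM in cKO middle, above both ends.

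**Figure D1:**
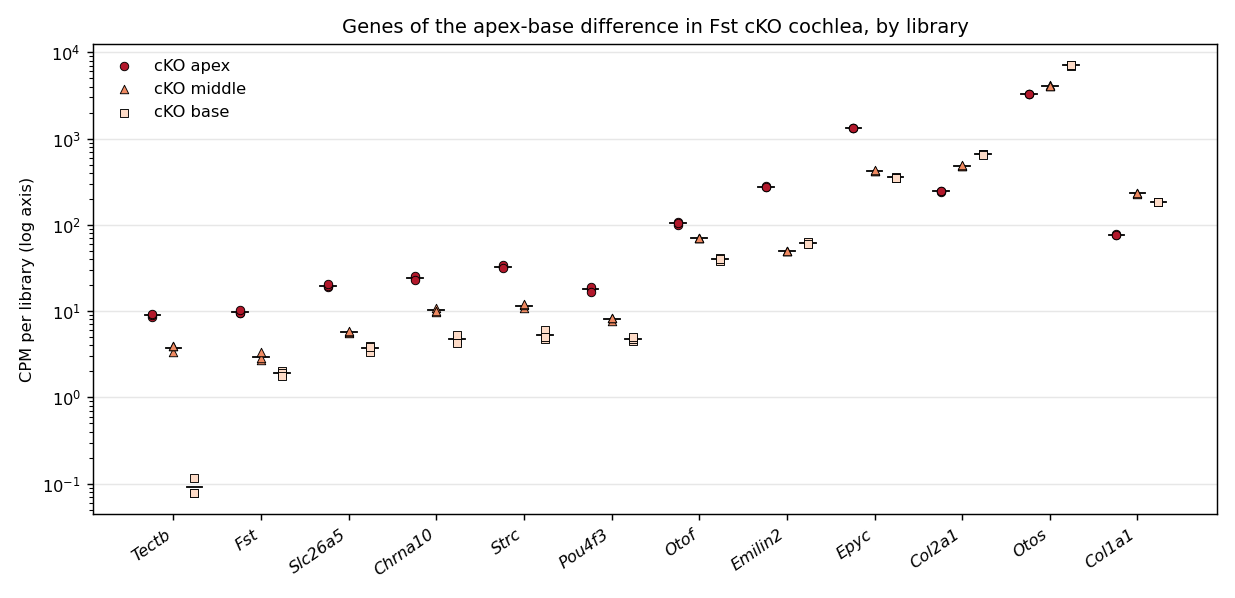
CPM per library on a log axis for 12 genes in cKO apex, cKO middle and cKO base, with bars at the means. Points of a group lie close together, and Tectb runs from 8.66 to 9.34 CPM in apex against 0.0782 to 0.117 CPM in base.

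Fst itself (ENSMUSG00000021765, chromosome 13, 114452290 to 114458951, minus strand) was graded in the cKO. Its level was 9.58, 9.46 and 10.2 CPM in cKO apex, 2.7, 2.86 and 3.36 CPM in cKO middle and 2, 1.92 and 1.76 CPM in cKO base. All apex libraries were above all others, and the log2 change was 2.36 ± 0.109 (adjusted p = 1e-19). In control it was 22.9, 24.5 and 24.1 CPM in apex and 2.1, 2.08 and 2.46 CPM in base, a log2 change of 3.43, and the cKO change minus the control change was -1.07 ± 0.168 (adjusted p = 4.7e-06). Since the deleted exons are not given, counts over the whole gene do not check the deletion. Of 38 activin, BMP and follistatin pathway genes 3 were higher and 1 was lower, against 2.79% and 3.81% of all genes tested. The median log2 change of the list was 0.15. Inhba, which encodes a subunit of activins, had 3.9, 3.67 and 2.86 CPM in cKO apex and 1.53, 1.21 and 1.56 CPM in cKO base, a log2 change of 1.27 ± 0.167 (adjusted p = 4.8e-08). Inhbb, the related subunit, changed by 1.03 ± 0.199, but its change was 0.95 without cKO apex replicate 1 and 0.86 without cKO base replicate 2, under the fold threshold. Gdf10, a ligand of the TGF-β family, had 6.45, 6.05 and 5.75 CPM in cKO apex and 19.3, 20.9 and 22.5 CPM in cKO base, a log2 change of -1.78 ± 0.0716. Id1, a BMP response gene, had a log2 change of 0.56 and was not called.

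Of 19 hedgehog pathway genes none was higher and 2 were lower in cKO apex, against 2.79% and 3.81% of all genes tested. The median log2 change of the list was 0.02. Gli1, a transcription factor and target of the pathway, had 4.24, 3.23 and 3.81 CPM in cKO apex and 7.39, 7.66 and 7.78 CPM in cKO base, with no overlap. Its log2 change was -1.02 ± 0.0947 (adjusted p = 2e-11), near the threshold, and -0.92 without cKO apex replicate 2. Ihh, a hedgehog ligand, changed by -1.01 ± 0.284, and by -0.85 and -0.87 without cKO apex or cKO base replicate 1. Gli2, just short of the threshold, had a log2 change of -0.97, the ligand Shh 0.23 and the receptor Ptch1 -0.15, none of them called. In control none was higher and 2 were lower, with log2 changes of -1.38 for Gli1 and -1.21 for Gli2.

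Of 17 tested genes of retinoid handling and developmental gradients 1 was higher and 3 were lower, against 2.79% and 3.81% of all genes tested. Rbp4, the plasma carrier of retinol, had 1.22, 1.03 and 1.28 CPM in cKO apex and 43.4, 46.5 and 42.6 CPM in cKO base, a log2 change of -5.23 ± 0.0859. Cyp26b1, which breaks down retinoic acid, changed by -1.16 ± 0.0864 and A2m, a protease inhibitor, by -1.48 ± 0.0202. Hmga2 changed by 1.01 ± 0.429 and fell under the threshold or lost its call when any of 4 single libraries was left out, with values of 0.60 to 1.01. None of 14 Notch pathway genes was called, and the ligand Jag1 had a log2 change of 0.97. Of 20 Wnt pathway genes 2 were higher and none lower: Wif1, a secreted inhibitor, changed by 1.22 ± 0.0512 and the ligand Wnt11 by 1.19 ± 0.229.

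Called hair cell genes were, but for 1, higher in cKO apex. The 5 hair cell lists held 63 genes, of which 60 were tested, 23 were higher and 1 was lower in cKO apex, with a median log2 change of 0.72 against 0.02 for all genes tested. In control 26 were higher and 1 lower, with a median of 0.81, and the difference was called for 1 of the 60, Xirp2, with a median of -0.07, while it was called for 2.41% of all genes tested. In the comparison of cKO apex with cKO middle 8 were higher and 7 lower, and the median was 0.32.

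Outer hair cells amplify sound by changing length, and 5 of 11 genes on their list were higher with none lower. Slc26a5, the gene of prestin, the motor protein of these cells, (ENSMUSG00000029015, chromosome 5, 21810655 to 21865604, minus strand) had 19.1, 19.6 and 20.4 CPM in cKO apex and 3.38, 3.99 and 3.79 CPM in cKO base. Every apex library was above every base library, with a log2 change of 2.40 ± 0.0765 (adjusted p = 1.7e-24). Chrna9 and Chrna10 encode the subunits of the receptor by which efferent fibres quiet outer hair cells. Chrna10 had 24.2, 25.4 and 23.2 CPM in cKO apex and 4.6, 5.24 and 4.26 CPM in cKO base, a log2 change of 2.37 ± 0.0687. Chrna9 changed by 2.13 ± 0.168. Ocm, which encodes the calcium buffer oncomodulin, had 148, 148 and 149 CPM in cKO apex and 39.6, 38.8 and 37.7 CPM in cKO base, a log2 change of 1.94 ± 0.0265. The other 6 members were not called.

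Inner hair cells pass the signal to the nerve, and 4 of 8 tested genes on their list were higher with none lower. Otof, the gene of otoferlin, the calcium sensor of vesicle release, had 107, 100.1 and 105 CPM in cKO apex and 38.5, 41 and 40.4 CPM in cKO base. The libraries did not overlap, and the log2 change was 1.38 ± 0.0306 (adjusted p = 3.1e-29). Cabp2, a calcium-binding protein of the synapse, changed by 1.25 ± 0.0737 and Dnajc5b by 1.12 ± 0.217. Slc17a8, the vesicular glutamate transporter of these cells, changed by 1.04 ± 0.0602, and by 0.96 without cKO apex replicate 2.

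Among hair cell transcription and RNA-binding factors 5 of 7 tested were higher and none lower. Pou4f3, required for hair cell survival, had 18.1, 19 and 16.6 CPM in cKO apex and 4.48, 4.81 and 5.04 CPM in cKO base, a log2 change of 1.91 ± 0.0731 (adjusted p = 4.3e-22). Lhx3, Barhl1, Rbm24 and Gfi1 changed by 1.84, 1.51, 1.34 and 1.15. Of 17 stereocilia genes 6 were higher and none lower. Grxcr2 changed by 2.14 ± 0.123, Grxcr1 by 1.86 ± 0.297, the motor gene Myo15 by 1.59 ± 0.0394 and the actin bundler Fscn2 by 1.38 ± 0.0826. Espn, the gene of espin, changed by 1.03 ± 0.0554, and by 0.95 without cKO base replicate 1. Of 17 genes of the transduction and link complex 3 were higher and 1 lower. Lhfpl5, a subunit of the transduction complex, had 18.1, 16.7 and 17.5 CPM in cKO apex and 6.96, 5.9 and 6.72 CPM in cKO base, a log2 change of 1.42 ± 0.0761. Tomt and Loxhd1 changed by 1.35 and 1.31. Tmc2, at 0.147, 0.0734 and 0.146 CPM in cKO apex and 0.236, 0.586 and 0.234 CPM in cKO base, was called lower, but lost its call without replicate 2 of either group, with changes of -1.24 and -0.92.

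Supporting cells carry the hair cells and secrete much of the tectorial membrane. Of 19 tested genes on their list 7 were higher and none lower in cKO apex, with a median log2 change of 0.68. Epyc, which encodes the proteoglycan epiphycan, had 1336, 1334 and 1342 CPM in cKO apex and 362, 354 and 352 CPM in cKO base, a log2 change of 1.91 ± 0.00727 (adjusted p = 2.6e-53). Emilin2, an extracellular glycoprotein, had 276, 278 and 275 CPM in cKO apex, 49.2, 49.5 and 50.1 CPM in cKO middle and 60.9, 62.9 and 60.4 CPM in cKO base, so that apex stood apart from both other regions, with a log2 change of 2.17 ± 0.0247 over base. Slitrk6, a membrane protein needed for innervation, changed by 1.69 ± 0.0624, the transcription factor Sox2 by 1.16 ± 0.076 and the receptor Fgfr3 by 1.04 ± 0.0289. The low-affinity neurotrophin receptor Ngfr changed by 1.06 ± 0.0357, with cKO middle at 80.1, 80.7 and 74.9 CPM against 73.5, 74.3 and 71.6 CPM in cKO apex.

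Other genes led the rise by size rather than by list. Bpifb3 had 17.9, 18.7 and 18.2 CPM in cKO apex and 0.472, 0.469 and 0.508 CPM in cKO base, a log2 change of 5.23 ± 0.151 against 5.04 in control. Apoa4, an apolipoprotein, had 12.7, 14.2 and 12.7 CPM in cKO apex and 1.26, 1.33 and 1.92 CPM in cKO base, a log2 change of 3.13 ± 0.13. Plbd1 changed by 2.73 ± 0.0369, with 98.1, 97.7 and 94.8 CPM in cKO apex. Emilin3 and Egfl6, both extracellular matrix genes, changed by 2.34 and 2.19. 4930426D05Rik, annotated as antisense, changed by 2.04. Whether counting used strand is not given in the sources used here, so its reads cannot be told apart from those of an overlapping gene. In control these 6 genes changed in the same direction, by 2.09 to 5.04.

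**Figure D2:**
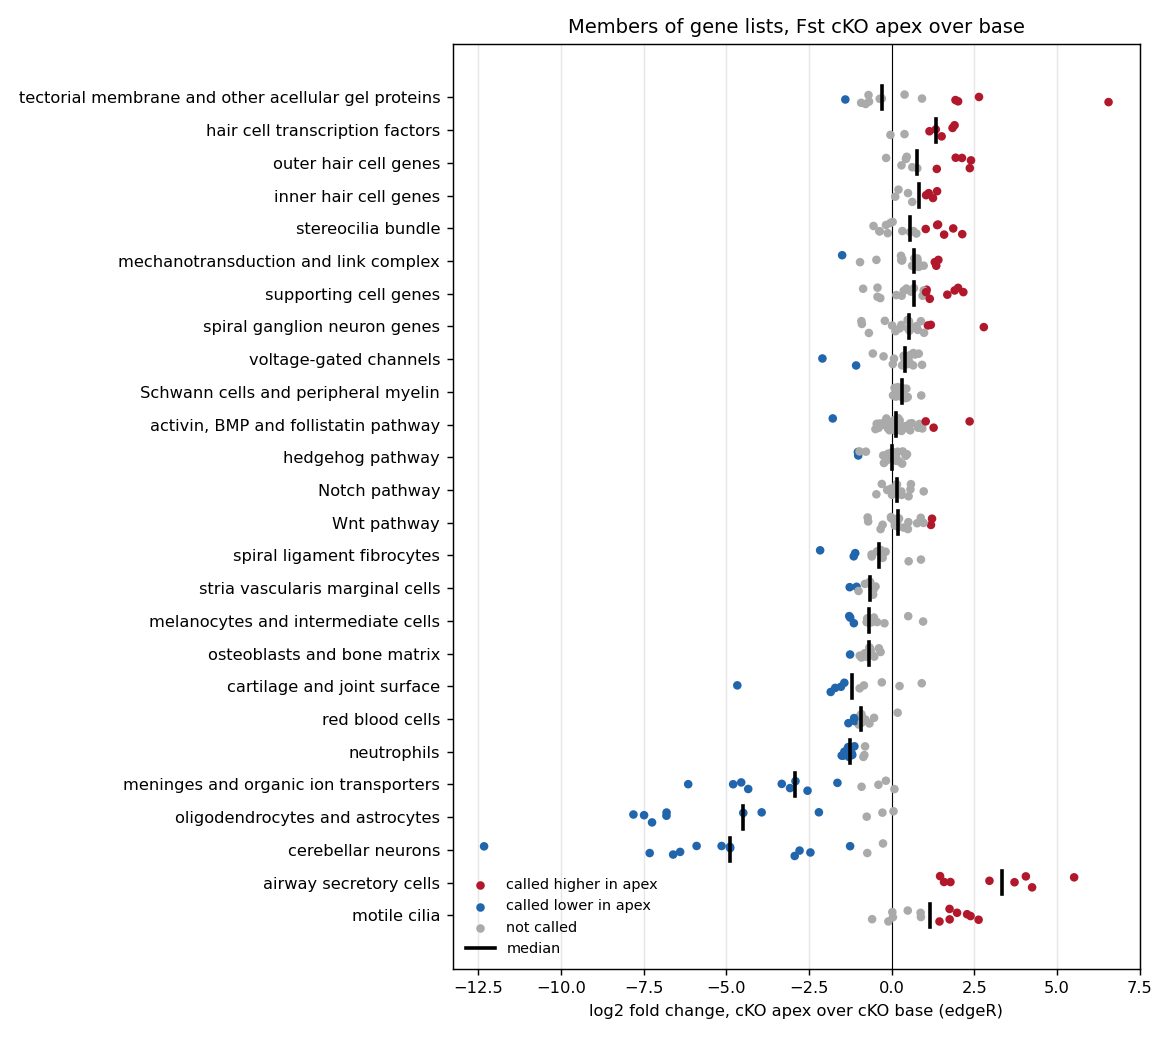
Log2 change of cKO apex over cKO base for each tested member of 26 gene lists, with red for genes called higher, blue for lower and grey for not called, and a black bar at the list median. Medians of the hair cell and supporting cell lists lie right of 0, and the cerebellar, glial and airway lists have medians of -4.88, -4.48 and 3.34.

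Neurons of the spiral ganglion carry the signal to the brainstem. Of 20 genes on their list 3 were higher and none lower in cKO apex, with a median log2 change of 0.52. Th, which encodes tyrosine hydroxylase, had 4.94, 4.22 and 3.66 CPM in cKO apex and 0.393, 0.938 and 0.508 CPM in cKO base, a log2 change of 2.79 ± 0.2 (adjusted p = 2.5e-14). Slc17a6, a vesicular glutamate transporter gene, had 56.3, 58.6 and 55 CPM in cKO apex and 24.4, 26.4 and 23.7 CPM in cKO base. In cKO middle, however, it had 91.2, 90.5 and 87.1 CPM. Slc17a7, another such transporter gene on the list, changed by 0.54 and was not called. The calcium buffer Calb2 changed by 1.10 ± 0.0108. The list summed to 6052 to 6085 CPM in cKO apex, 6356 to 6385 CPM in cKO middle and 3748 to 3770 CPM in cKO base. With cKO middle in place of cKO base its median turned to -0.20. None of 15 Schwann cell genes was called, though all 15 had a log2 change above 0, with a median of 0.32 that turned to -0.15 against cKO middle.

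Of 20 voltage-gated channel genes none was higher and 2 were lower, with a median log2 change of 0.41. Kcnd2, an A-type potassium channel, had 1.55, 1.91 and 1.98 CPM in cKO apex and 6.76, 8.17 and 8.25 CPM in cKO base, a log2 change of -2.09 ± 0.125, against 1.25 in control. Kcnd3, of the same family, changed by -1.07 ± 0.0957, with 18.2, 19 and 19.1 CPM in cKO middle. The list of brainstem and other central neurons summed to 6.46 to 7.51 CPM in cKO apex. It summed to 97.4 to 99.1 CPM in cKO middle and 64.2 to 67.4 CPM in cKO base. The list of cerebellar neurons summed to 303.6 to 308.9 CPM in cKO apex. Its sum was 321.0 to 325.1 CPM in cKO middle and 706.3 to 717.1 CPM in cKO base. The log2 change of Kcnd2 in cKO apex was -0.96 against cKO middle, smaller in size than against base. The part of central neurons in the channel values was not tested.

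Called genes of the lateral wall were lower in cKO apex. Of 10 marginal cell genes of the stria vascularis, which drives the potassium of endolymph, 2 were lower and none higher, and all 10 had a log2 change under 0 with a median of -0.66. Bsnd, which encodes barttin, a subunit of chloride channels, had 6.82, 7.45 and 7.87 CPM in cKO apex and 14.8, 15.4 and 15.9 CPM in cKO base, a log2 change of -1.06 ± 0.0733. Of 12 melanocyte and intermediate cell genes 3 were lower and none higher, with a median log2 change of -0.67. The 3 were the pigment genes Slc45a2, Tyr and Mlana, which changed by -1.28, -1.25 and -1.14. Of the 12, 2 had a log2 change above 0, the higher being that of the pigment gene Pmel, 0.95, which was not called. Of 12 genes of spiral ligament fibrocytes 3 were lower and none higher, with a median of -0.38. Otos, the gene of otospiralin, the most abundant of these 3, had 3283, 3297 and 3300 CPM in cKO apex and 7028, 7065 and 7052 CPM in cKO base, a log2 change of -1.10 ± 0.00689 (adjusted p = 1.8e-46). The water channel Aqp1 changed by -1.14 ± 0.0245 and the proteoglycan Vcan by -2.16 ± 0.172. In control apex no marginal cell gene was called, with a list median of -0.25. There 1 melanocyte gene was lower and none higher, with a median of -0.31. Of the fibrocyte genes 4 were lower and none higher in control apex, with a median of -0.46. The difference of the changes was called lower for 1 marginal cell gene, higher for 2 melanocyte genes and for no fibrocyte gene.

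Called skeletal genes were lower in cKO apex. Of 10 tested cartilage and joint surface genes 5 were lower and none higher, with a median log2 change of -1.20. Col2a1, the collagen of cartilage, had 243, 244 and 246 CPM in cKO apex and 656, 666 and 649.7 CPM in cKO base, a log2 change of -1.43 ± 0.0213, and Acan, the gene of aggrecan, changed by -1.53 ± 0.0196. Prg4, which encodes the lubricin of joint surfaces, had 0.442, 0.44 and 0.293 CPM in cKO apex and 9.83, 10.1 and 10.2 CPM in cKO base, a log2 change of -4.67 ± 0.169. Of 15 osteoblast and bone matrix genes 1 was lower in cKO apex, with a median log2 change of -0.67, whereas 12 were lower in control apex, with a median of -1.51. The difference of the changes was called higher for 5 of them. Col1a1, the main collagen of bone, had 76.3, 78.2 and 77.1 CPM in cKO apex and 185, 183 and 185 CPM in cKO base, against 41.4, 41.6 and 45.2 CPM in control apex and 531, 528 and 519 CPM in control base.

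Most neutrophil genes were lower in cKO apex. Of 15 neutrophil genes 12 were lower and none higher, and the list summed to 155.4 to 160.4 CPM in cKO apex against 382.8 to 384.8 CPM in cKO base. Camp, a granule peptide gene, had 8.25, 8.47 and 8.93 CPM in cKO apex and 25.5, 22.8 and 24.7 CPM in cKO base, a log2 change of -1.51 ± 0.058, and Ngp changed by -1.43 ± 0.0334. In control none of the 15 was called in either direction, and the list summed to 95.8 to 97.9 CPM in control apex and 118.6 to 123.1 CPM in control base. Of 12 tested red blood cell genes 3 were lower, among them Rhag and Hba-a2 with log2 changes of -1.30 and -1.12. Hba-a2 has a near-identical copy, so its counts are uncertain. None of 8 platelet genes was called in the cKO, while 5 were lower in control apex. Of 5 tested osteoclast genes 1 was lower, of 11 B cell genes 1 (Dntt, which lost its call without cKO apex replicate 3 or cKO base replicate 2), of 10 macrophage genes 1 (Lyve1, -1.97) and of 4 tested vestibular genes 1 (Nox3), with none higher. Of 10 tested striated muscle genes 6 were lower and 1, Actn3, was higher, though not without cKO apex replicate 2 or cKO base replicate 3. The median of the muscle list was -1.14, but its sum was higher in cKO apex, at 37.7 to 39.2 CPM against 31.9 to 33.3 CPM in cKO base, and the median was 0.50 over the 2 members averaging at least 5 CPM. The proliferation marker Mki67, the one cell cycle gene called of 15, changed by -1.13 ± 0.0407. No gene was called of the 10 of endothelium and pericytes, 15 of the clock, 14 of the interferon response, 11 immediate early genes, 6 of root cells and Reissner membrane or 6 tested mitochondrial transcripts.

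Among the lists the lowest median log2 changes were those of cerebellar neurons, -4.88, and of oligodendrocytes and astrocytes, -4.48, or -4.20 and -4.15 with genes at 0 counts in cKO apex set at their bound. Of 14 cerebellar neuron genes 12 were lower in cKO apex and none higher, against 2 lower and 1 higher in control apex. Zic1, a transcription factor of granule cells, had 0.368, 0.257 and 0.22 CPM in cKO apex, 13.8, 14.7 and 13.7 CPM in cKO middle and 44.5, 47.6 and 44.4 CPM in cKO base, a log2 change of -7.32 ± 0.109 (adjusted p = 1.3e-34). Gabra6, a receptor subunit of granule cells, was at 0 in all cKO apex libraries and had 22.4, 22.8 and 21.5 CPM in cKO base, at least 605-fold lower in apex with 3 counts set for the whole group. It was at 0 in control apex and control base too. Cbln3 had 1.92, 1.69 and 1.87 CPM in cKO apex, 1.19, 1.53 and 1.3 CPM in cKO middle and 63.8, 64.7 and 64.8 CPM in cKO base, so that base stood apart from both other regions. Cbln1 and Neurod1 changed by -4.89 and -4.88 and Pcp2, a Purkinje cell gene, by -5.90. Of the list's sum in cKO apex, the gene Zic2 alone gave 230.8 CPM, against 276.3 CPM in cKO base, and was not called. In cKO apex the defining genes Gabra6 and Skor2 were at 0, and in cKO base none of the 14 was.

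Of 12 tested genes of brainstem and other central neurons 6 were lower and none higher. Rgs8 had 0.111, 0.0734 and 0.0732 CPM in cKO apex, 9.76, 10.5 and 9.89 CPM in cKO middle and 33.5, 33.9 and 36.2 CPM in cKO base, a log2 change of -8.58 ± 0.158. Gad1, an enzyme of GABA synthesis, had 5.23, 5.28 and 5.93 CPM in cKO apex and 16.5, 18 and 16.8 CPM in cKO base, a log2 change of -1.64 ± 0.0905. Of 11 tested genes of oligodendrocytes and astrocytes 8 were lower and none higher, and the list summed to 179.0 to 182.6 CPM in cKO apex and 309.1 to 315.7 CPM in cKO base. In control apex 7 of the 11 were lower too and none higher, with a median log2 change of -2.01. Mobp, a gene of central myelin, had 0.295, 0.257 and 0.33 CPM in cKO apex and 32.2, 33 and 34.7 CPM in cKO base, a log2 change of -6.80 ± 0.11. Mlc1, a membrane protein of astrocytes, changed by -5.12 ± 0.162 and the AMPA receptor gene Gria1 by -6.83 ± 0.178. Of 13 genes of meninges and organic ion transport 9 were lower and none higher, against 10 lower and 1 higher in control apex. Slc47a1 had 0.221, 0.257 and 0.293 CPM in cKO apex and 6.8, 7.35 and 7.54 CPM in cKO base, a log2 change of -4.79 ± 0.176. Hoxa2, a hindbrain gene and the 1 anterior Hox gene tested, changed by -3.05 ± 0.28. Gm20388 was at 0 in cKO apex and had 15.7, 0.0782 and 17.4 CPM in cKO base, where replicate 2 stood far below the other two, so its value is uncertain.

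Airway genes ran the other way. All 8 tested genes of airway secretory cells, of 12 on the list, were higher in cKO apex, against 1 higher and 3 lower in control apex. The low-count filter keeps a gene that is high enough in a single group. Some of the 8 may thus have been tested only because of their level in cKO apex, so this count is not read as support. Bpifa1, a secreted protein of upper airways, had 311, 306 and 311 CPM in cKO apex, 11.2, 10.7 and 10.5 CPM in cKO middle and 91.4, 87.5 and 91.1 CPM in cKO base, a log2 change of 1.78 ± 0.018. In control it had 6.51, 5.97 and 6.51 CPM in apex and 109, 111 and 112 CPM in base. Cyp2f2, an enzyme of airway club cells, had 21.1, 23.1 and 23.6 CPM in cKO apex and 7.04, 8.17 and 7.39 CPM in cKO base, a log2 change of 1.59 ± 0.0848. Scgb3a2 changed by 1.47 ± 0.499 and lost its call without cKO base replicate 3, at 1.27. Of 14 tested genes of motile cilia 7 were higher and none lower, among them the dynein genes Dnah5, Dnah3 and Dnah9 with log2 changes of 2.63, 2.39 and 2.29. In control apex 2 of the 14 were higher and 1 lower. The cilia list did not follow the airway list in cKO middle. Against middle 1 cilia gene was higher in cKO apex, with a list median of 0.13. All 8 tested airway genes were higher there, with a median of 3.40.

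**Figure D3:**
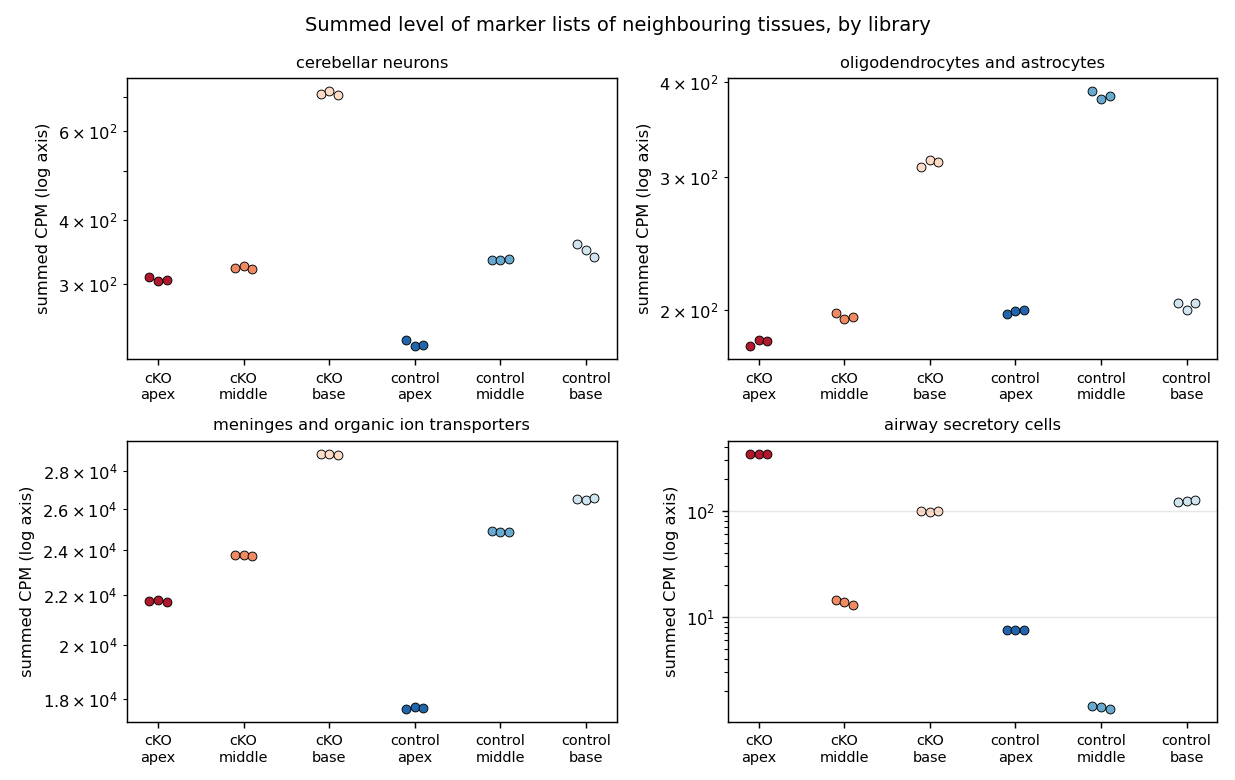
Summed CPM per library, on log axes, of 4 marker lists in the 6 groups, 3 libraries each. The cerebellar list is at 706.3 to 717.1 CPM in cKO base, above every other group, and the airway list is highest in cKO apex. Most of the airway sum in cKO apex and base is that of Bpifa1.

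The change from base to apex was then set against that in control, by testing the difference of both changes. It was called for 432 genes, 153 with a higher change in the cKO (0.855% of the genes tested) and 279 with a lower one (1.56%). Of these, 24 and 61 averaged at least 5 CPM over the apex and base libraries of cKO and control. Among those 24 Cyp2f2 had the largest positive difference, 8.01 ± 0.224, and Bpifa1 the next, 5.91 ± 0.042. Ppbp, a platelet chemokine, had 6.37, 6.53 and 5.97 CPM in cKO apex and 8.18, 7.62 and 8.09 CPM in cKO base, against 0.238, 0.102 and 0.237 CPM in control apex and 7.24, 7.71 and 6.39 CPM in control base, a difference of 4.84 ± 0.232. Col1a1, Bglap and Bglap2, all bone matrix genes, had differences of 2.37, 1.75 and 1.56, with larger falls in control apex. Bglap and Bglap2 are near-identical copies whose reads may have been split. Postn and Col22a1, matrix genes, had differences of 1.56 and 1.53.

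The 10 largest negative differences at that level included 6 genes of the central lists. Among these Rgs8 and Cbln3 had differences of -7.96 and -5.17, and Mobp, Zic1 and Cbln1 of -4.32, -4.09 and -3.39. Gria1, on none of the lists, had -4.68. Ppp1r17 differed in another way, since it had 8.29, 8.84 and 9.56 CPM in cKO apex and 5.58, 5.51 and 6.53 CPM in cKO base, against 12.4, 12.2 and 13.2 CPM in control apex and 0.559, 0.827 and 0.626 CPM in control base. Within the lists of the sensory epithelium the difference was called for 0 of 19 supporting cell genes, 0 of 13 gel genes and 1 of 60 hair cell genes, near the 2.41% of all genes tested. At an adjusted p alone many more differences would pass, 2915 higher and 1524 lower, and a p above the threshold does not show that the gradients were alike.

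**Figure D4:**
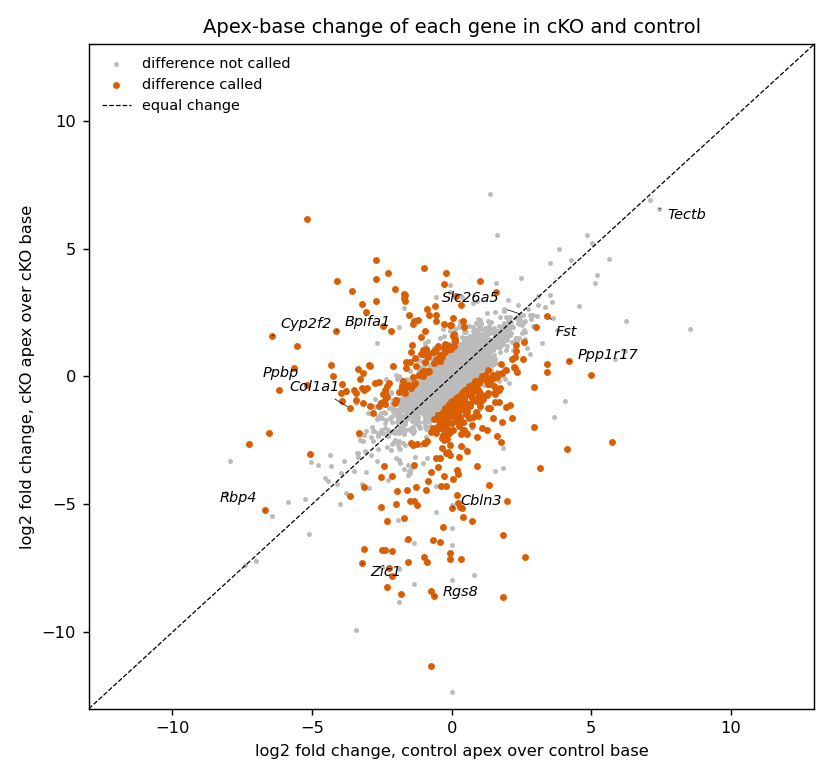
Log2 change of apex over base in cKO (y) against that in control (x) for each gene tested, with orange for genes whose difference was called. Tectb and Slc26a5 lie near the dashed line of equal change, while Cyp2f2 and Bpifa1 lie left of it and Zic1, Rgs8 and Cbln3 below it.

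**Figure D5:**
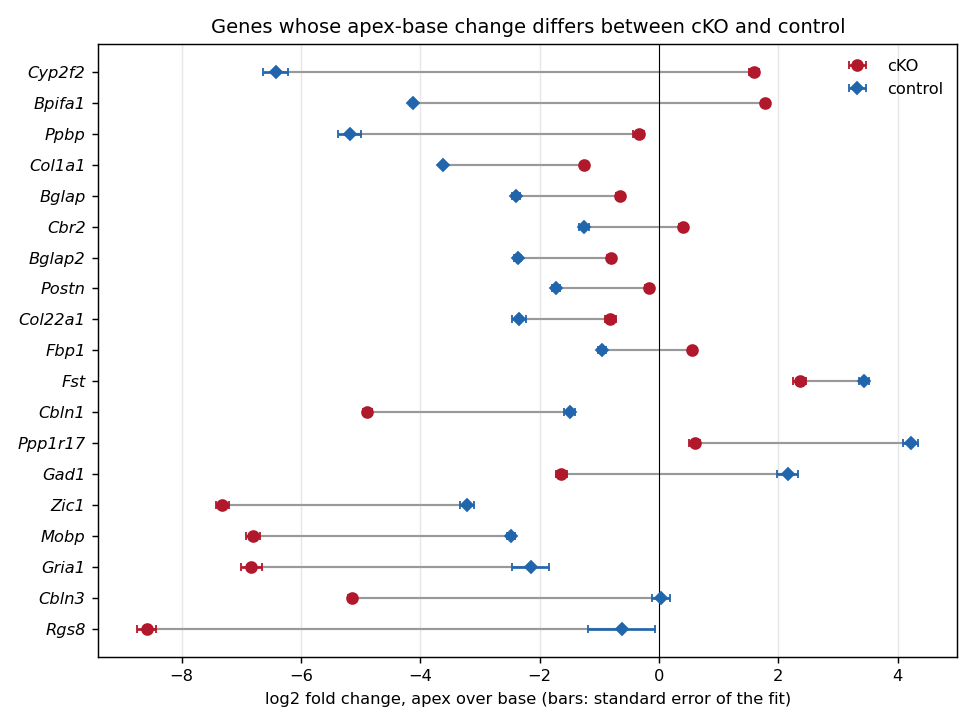
Log2 change of apex over base in cKO (red circles) and control (blue diamonds) for 19 genes whose difference was called, with the standard error of the fit as bars. Fst is at 2.36 in the cKO and 3.43 in control, and Cbln3 at -5.14 in the cKO and 0.03 in control.

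Against cKO middle, cKO apex had 299 genes higher (1.67%) and 525 lower (2.93%). Of the 500 genes higher than in base 214 were also higher than in middle, and of the 682 lower 291 were also lower. Among genes averaging at least 5 CPM these counts were 44 of 115 and 59 of 187. Both comparisons use the same cKO apex libraries, so these overlaps are not independent. Tectb, Fst and Slc26a5 fell in order along the cKO cochlea, with mean levels of 19.7, 5.74 and 3.72 CPM for Slc26a5 in apex, middle and base. Pcp2, Cbln3 and Neurod1, called lower in apex than in base, had a log2 change above 0 against cKO middle.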

How the data were processed

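The expected counts per gene and library were made by the authors and used as deposited, per the file headers only as counts, and were rounded to whole numbers because 89.2% to 89.9% of the values in a library were whole within 1e-06. The table also holds FPKM computed by the authors. The submitters' processing notes name STAR 2.5.2b, Cuffdiff 2.2.1 and GRCm38/mm10, without the role of each. Positions came from GENCODE M21, which held 17800 of the genes tested.

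Counts were fitted with edgeR 4.0.16 (R 4.3.3): filterByExpr kept 17901 of 46583 genes, TMM factors ran from 0.977 to 1.03, and the quasi-likelihood test (two-sided) used all 18 libraries in 6 groups, with Benjamini-Hochberg adjustment. Calls needed an adjusted p under 0.05 and a log2 change of at least 1 in size. An error after a log2 change is a standard error taken from the F statistic (n = 3 libraries a group). The code was tested on simulated data. Alternatives used limma 3.58.1, DESeq2 1.42.0 and others.

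Libraries of a pool differed by a chi-square of 1.19 to 1.59 per degree of freedom over genes with at least 20 counts, so none was merged. The 43 gene lists hold 575 members, 573 of them found. The members and lists were chosen with earlier results of these data known. The text names a fixed set of genes, the 12 largest called changes in each direction at a mean of at least 5 CPM, the 10 largest called differences in each direction at a mean of at least 5 CPM over the 12 libraries compared, and the leading or called members of lists. From these, genes were picked for the text after their values were seen, and a few are not reported here. The 3 promoters were chosen as stated beside them. A further candidate, Chrna10, was left out because its window overlaps an annotated exon.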

Additional observations from a re-analysis of the deposited data

Results flagged for a closer look

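The groups hold 3 libraries each, too few for a check of single outlying libraries. The genes below, among those described or listed, had an apex-base change that differed between cKO and control by the test of the difference itself (edgeR, adjusted p under 0.05 and a log2 difference of at least 1). Each value is the log2 change in cKO minus that in control, so a positive one means a higher change in the cKO. No explanation was weighed.

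Genes of airway secretory cells and motile cilia had positive differences: Cyp2f2 8.01, Sec14l3 7.84, Bpifa1 5.91, Muc5b 5.23, Bpifb1 4.27, Dnah5 3.52, Dnah3 3.20 and Dnah9 2.24. So did Ppbp at 4.84, the bone and matrix genes Col1a1 at 2.37, Bglap at 1.75, Bglap2 at 1.56, Postn at 1.56 and Col22a1 at 1.53, and Hoxa2 at 2.03, Cbr2 at 1.66, Fbp1 at 1.499, Rbp4 at 1.47, Pmel at 1.18 and Wnt11 at 1.27.

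Genes of central neurons and glia had negative differences: Rgs8 -7.96, Neurod1 -6.88, En2 -5.72, Pcp2 -5.60, Gad2 -5.59, Cbln3 -5.17, Gria1 -4.68, Mobp -4.32, Zic1 -4.09, Gad1 -3.79, Slc1a6 -3.48, Cbln1 -3.39, Mlc1 -2.60 and Gfap -1.40. The control change of some of these, among them Neurod1 and Gad1, was above 0. Ppp1r17 had -3.62, but was higher in apex than in base in both genotypes. Gm20388, of uncertain counts, had -10.56. Other negative differences were those of Kcnd2 at -3.34, Kcnd3 at -1.38, Slc22a6 at -1.20, Ngp at -1.19, Fst at -1.07, Camp at -1.03, the hair bundle gene Xirp2 at -1.50 and Prg4 at -1.01.

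Fitted values of genes at 0 to 3 counts in a group, among them Gm20388, Muc5b and Sec14l3, depend on the prior count. The summed levels of the cerebellar, glial and airway lists moved with the pools as given in the report, and their part was not tested.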

How the results depend on the processing

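Of 1182 genes called between cKO apex and base (500 higher, 682 lower), 505 (182 and 323) were called by glmTreat against a log2 change of 1, 300 (113 and 187) after refitting only the genes at a mean of at least 5 CPM in cKO apex and base, 311 (119 and 192) by limma on log2(FPKM + 1), 9895 (5467 and 4428) with no fold threshold, and 299 higher with cKO middle in place of cKO base, an alternative chosen after seeing the data. Of 432 called differences (153 and 279) these settings gave 130 (35 and 95), 96 (24 and 72), 111 (27 and 84) and 4439 (2915 and 1524), and of 981 calls in control 445, 287, 253 and 9396. RLE scaling, DESeq2, no filter beyond 1 count, the contrast's own libraries and limma on log2(FPKM + 0.1) kept each count within 1.5 times. Leaving out 1 library gave 1181 to 1232 calls (499 to 526 higher, 678 to 716 lower), 411 to 433 differences (148 to 162 higher, 258 to 279 lower) and 985 to 1014 calls in control. With the replicate block the count was 1181. Same-numbered libraries of cKO apex and base correlated at -0.0012 to 0.013, so the numbers do not pair them. Between cKO base and control apex, which the difference also uses, same-numbered libraries correlated at -0.0028 to 0.16. Libraries of other numbers correlated there at -0.156 to 0.0743. With the replicate block 433 differences were called. Against cKO middle these log2 changes turned sign: Shh -0.24, Xist -0.10, Pcp2 0.64, Cbln3 0.44, Neurod1 0.70, Postn 0.37, Gad1 0.30, Ngfr -0.10, Slc17a6 -0.66, Cldn19 -0.081, Slc32a1 0.26, Pmel -0.35, Xirp2 -1.49 and Gad2 1.19. So did the list medians of gel proteins (0.05), channels (-0.17), hedgehog (-0.05), retinoid (0.11), clock (0.03), muscle (0.26) and vestibular genes (-0.89), besides those in the report. By limma on log2(FPKM + 1) the differences of Prg4 (0.015) and Slc22a6 (0.417) turned sign. The causes were not tested. Of 1404 single-library omissions over the named genes 27 lost a call and 0 turned sign. The lost calls include the differences of Prg4 without any of 5 libraries (-0.99 to -0.84), Camp (-0.99 and -0.98 without replicate 1 of cKO base or control base), Gm20388 (-8.33 without control apex replicate 1) and Hoxa2 (1.68 without cKO apex replicate 3).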
